A study of Mus musculus with 12 samples.

Results

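The genes described here encode the semaphorins of classes 3 to 7, the plexins, the neuropilins, the Slit proteins, the Robo receptors, the netrins and the Unc5 receptors, measured in mouse gonads with and without the transcription factor Foxl2. These families were chosen with earlier results of these data known. Their genes were taken by symbol alone from the gene annotation of the arrays, and no measured value entered this rule. This gave 46 genes of 19938 on the adult arrays and the same 46 of 18194 on the newborn arrays: 20 semaphorins, 2 neuropilins, 9 plexins, 3 Slits, 4 Robos, 4 netrins and 4 Unc5 receptors. The adult set held 8 arrays of single organs from 8-week-old animals. They were 2 wild-type ovaries, 3 ovaries of the genotype given as Foxl2 flox/flox x CreEBD and 3 wild-type testes, the last sampled as 0.25 of a testis. The labels call the second group Foxl2 mutant, and neither the promoter that drives CreEBD nor the time of deletion is given in the sources used here. The newborn set, at postnatal day 3 (P3), held 2 arrays of wild-type and 2 of Foxl2 KO ovaries, each a pool of more than 10 females on another array platform. All organs were used whole or as a piece, so RNA of every cell type of the organ was measured together, and fewer cells of a type cannot be told apart from less RNA per cell.

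Semaphorins are ligands, secreted in class 3 and anchored to the membrane in classes 4 to 7, that bind plexins, and most class 3 members need a neuropilin as co-receptor. Slits are secreted ligands of Robo receptors, and netrins are laminin-related ligands of Dcc and the Unc5 receptors. These systems were described first in the steering of growing axons, and they also act in blood vessel growth, cell migration, immune cells and epithelia. In the ovary, Slit and Robo genes are known from follicle formation and the corpus luteum, and neuropilins also bind vascular endothelial growth factors.

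The promoter windows of 4 members are shown here, each 5′ to 3′ from 250 bases before to 50 bases after an annotated start in RefSeq, assembly GRCm38.p6. Sema6c had the largest rise in the mutant ovary, Robo1 the largest fall, Plxnc1 the change that passed at P3, and Sema4b rose in the adult and held a searched motif. Capitals mark a match to one of 3 searched motifs, on either strand, and windows without capitals held none.
Sema6c, chr3:95160170-95160469, plus strand: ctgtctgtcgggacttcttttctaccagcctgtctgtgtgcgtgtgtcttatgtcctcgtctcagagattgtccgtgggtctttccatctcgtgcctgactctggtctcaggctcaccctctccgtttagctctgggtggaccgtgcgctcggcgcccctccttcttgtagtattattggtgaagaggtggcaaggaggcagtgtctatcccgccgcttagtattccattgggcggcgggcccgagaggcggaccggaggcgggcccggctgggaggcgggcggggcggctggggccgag
Robo1, chr16:72662899-72663198, plus strand: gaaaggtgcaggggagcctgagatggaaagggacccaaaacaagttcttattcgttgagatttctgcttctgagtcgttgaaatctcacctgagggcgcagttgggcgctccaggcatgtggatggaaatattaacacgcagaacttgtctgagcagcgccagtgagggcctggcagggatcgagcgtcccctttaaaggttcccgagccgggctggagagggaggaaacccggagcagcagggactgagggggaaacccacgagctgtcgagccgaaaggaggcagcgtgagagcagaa
Plxnc1, chr10:94944796-94945095, minus strand: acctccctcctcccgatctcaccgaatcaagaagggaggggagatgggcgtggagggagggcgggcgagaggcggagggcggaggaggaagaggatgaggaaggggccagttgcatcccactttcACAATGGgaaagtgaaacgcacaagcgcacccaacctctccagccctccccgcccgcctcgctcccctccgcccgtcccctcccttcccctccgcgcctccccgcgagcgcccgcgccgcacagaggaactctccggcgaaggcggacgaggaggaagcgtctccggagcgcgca
Sema4b, chr7:80186620-80186919, plus strand: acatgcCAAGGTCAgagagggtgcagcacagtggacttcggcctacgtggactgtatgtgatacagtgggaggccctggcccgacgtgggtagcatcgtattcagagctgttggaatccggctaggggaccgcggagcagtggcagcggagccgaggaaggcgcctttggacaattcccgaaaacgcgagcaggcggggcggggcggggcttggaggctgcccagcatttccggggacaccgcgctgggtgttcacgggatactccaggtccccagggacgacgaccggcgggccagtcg
Sema6c and Sema4b have 2 annotated windows each, of which the first by position is shown. A window was found for 38 of the 46 members, and the table holds none for Ntn1, Plxna1, Plxna4, Sema3b, Sema3f, Sema6a, Slit1 and Unc5d. The forkhead motif GTAAACA was in the windows of 0 of 38 members and of 4.05% of all 27025 genes. The SOX motif ACAATGG was in 2 members, Plxnc1 (125 bases before the start) and Sema4a, or 5.26% against 4.15% of all genes. The NR5A motif CAAGGTCA was in 1 member, Sema4b (244 bases before the start), or 2.63% against 1.76%. The 3 motifs do not overlap in these windows, and a match is a description of the letters only. Member windows were rich in G and C, with a median GC content of 67.5% against 53.3% over all genes (for a gene with several windows, the one richest in G and C) and a median of 23 CG dinucleotides against 8. Among the windows shown, GC content was 57.0% for Robo1, 62.7% for Sema6c, 69.0% for Plxnc1 and 65.3% for Sema4b, by the letters printed.

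Foxl2 itself marked the labelled groups. Its RMA level, a log2 measure of array brightness, was 8.75 and 8.81 in the adult wild-type ovaries against 5.81, 6.04 and 5.73 in the mutants, a difference of -2.92 ± 0.13 (standard error, SE; limma adjusted p = 5.08e-07), and its P3 signals were 814.5 and 829.9 in wild-type against 186.4 and 153.7 in KO pools. The labelled tissues carried their markers: the summed level of 8 spermatid genes was 19468 to 21131 in testes and 116 to 140 in ovaries. The adult wild-type ovaries differed from each other by at least 2-fold in 4 of the 46 genes (8.7%, against 3.41% of all genes): Sema3d was higher in ovary 2, and Sema5a, Plxnc1 and Ntn4 in ovary 1. Their summed marker levels differed too: ovary 1 had 2865 and ovary 2 had 679 for 10 oocyte markers, 12866 and 8151 for 13 granulosa cell markers, and 1399 and 2126 for 8 endothelial markers. The part of this in the differences between the ovaries was not tested. Leaving out 1 of these 2 ovaries leaves a single array, so the test of such a fit holds none of the wild-type spread. Some members were dim, and 11 of the 46 lay below 5.50, the median of all adult values, in every adult sample. These were Ntn1, Ntn3, Ntn5, Plxnb3, Robo3, Sema3e, Sema4f, Sema4g, Slit1, Unc5c and Unc5d. The matching share of all genes is not given here, so the count does not show that members were dimmer than other genes. In at least 1 adult group, 33 of the 46 had a mean above the median gene. Levels of different genes come from different probe sets and are not compared.

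In the adult mutant ovary, 9 of the 46 genes rose and 7 fell against wild-type ovary. The genes that rose were the semaphorins Sema6c, Sema5b, Sema3c, Sema4b, Sema4d and Sema7a, the plexin Plxna4, the ligand Slit3 and the netrin Ntn4. Those that fell were the receptors Robo1, Robo2, Plxna2 and Plxnd1 and the semaphorins Sema3g, Sema6a and Sema6b. The threshold was an adjusted p of 0.05 in limma, with p-values adjusted by the Benjamini-Hochberg method across 19938 genes. These 16 genes made up 34.8% of the members, while 16.2% of all genes passed (9.55% higher and 6.66% lower). The median difference was -0.04 over the members and -0.02 over all genes, and 9 of the members that passed differed by at least 2-fold, as did 5.61% of all genes. Mutant and wild-type samples did not overlap in 23 of the 46 members, against 39.9% of all genes, with 10 above (19.3% of all genes) and 13 below (20.6%).

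**Figure D1:**
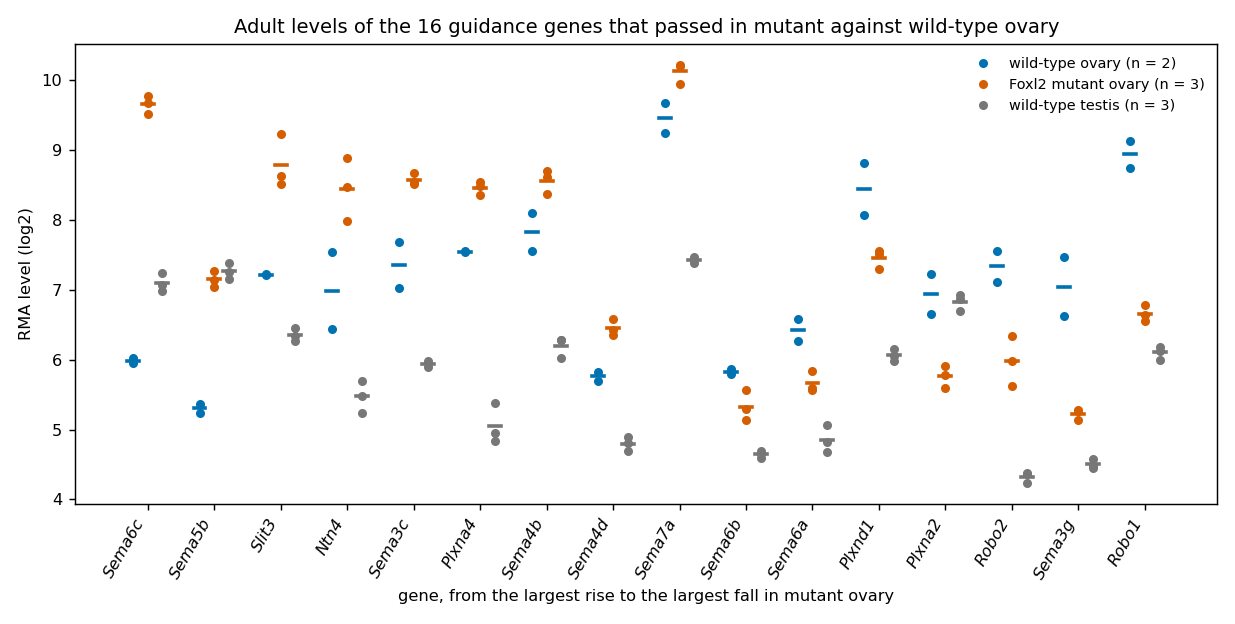
RMA level (log2) of the 16 guidance genes that passed in adult mutant against wild-type ovary, ordered by difference, with 1 point per sample of the 2 wild-type ovaries, 3 mutant ovaries and 3 testes and a bar at each group mean. Sema6c reached 9.52 to 9.78 in mutant ovaries, above its 6.99 to 7.24 in testes, while Robo1 fell to 6.56 to 6.78 from 8.75 and 9.13.

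Among semaphorins, 6 of 20 rose and 3 fell in the mutant ovary. Sema6c, a transmembrane class 6 ligand of A-type plexins, stood at 6.02 and 5.95 in wild-type ovaries and at 9.68, 9.52 and 9.78 in mutants. The groups were far apart, and the difference of 3.68 ± 0.13 (adjusted p = 1.24e-07) equalled 12.8-fold. Sema5b, a transmembrane class 5 semaphorin with thrombospondin repeats, was 5.37 and 5.24 in wild-type ovaries and 7.04, 7.14 and 7.27 in mutants. Its rise of 1.84 ± 0.13 (adjusted p = 8.12e-06) left no overlap. Sema3c, a secreted ligand that uses neuropilins, was 7.68 and 7.02 in wild-type ovaries and 8.67, 8.51 and 8.55 in mutants. The wild-type ovaries lay apart from each other, but both were below every mutant, and the rise was 1.23 ± 0.18 (adjusted p = 0.000919).

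The other semaphorins that rose did so by less than 2-fold. Sema7a, which is held by a GPI anchor and binds Plxnc1 and integrins, went from 9.67 and 9.24 to 10.21, 9.95 and 10.22 (0.67 ± 0.14, adjusted p = 0.00969), and it missed the threshold when testes were left out of the fit. Sema4d, the class 4 ligand of Plxnb1, went from 5.83 and 5.69 to 6.58, 6.36 and 6.42 (0.69 ± 0.13, adjusted p = 0.00618). With the mean over its probe sets the difference was 0.31 and did not pass. Sema4b, also of class 4, was 8.10 and 7.56 in wild-type ovaries and 8.70, 8.37 and 8.62 in mutants. Its rise of 0.73 ± 0.18 (adjusted p = 0.0181) did not hold without wild-type ovary 2 (0.47), without mutant ovary 1 or 3, or without testes in the fit.

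The 3 semaphorins that fell were of classes 3 and 6. Sema3g, a secreted ligand known from endothelium, was 7.47 and 6.62 in wild-type ovaries and 5.13, 5.27 and 5.28 in mutants. The wild-type values differed by more than the mutants did, yet both were higher, and the fall was -1.82 ± 0.21 (adjusted p = 0.000246). Sema6a, a transmembrane ligand of Plxna2 and Plxna4, was 6.58 and 6.27 against 5.84, 5.60 and 5.57 (-0.75 ± 0.17, adjusted p = 0.0119), and without wild-type ovary 1 its difference of -0.60 did not pass. Sema6b was closest to the threshold, at 5.79 and 5.86 against 5.13, 5.57 and 5.29 (-0.50 ± 0.15, adjusted p = 0.0468), and it missed under 6 of 12 alternatives, among them without either wild-type ovary and without mutant ovary 1 or 3. Of the 11 semaphorins that did not pass, Sema5a and Sema3d depended most on which wild-type ovary was used. Sema5a was 10.21 and 8.80 in wild-type ovaries and 8.49 to 8.84 in mutants, so that its difference was -1.49 without wild-type ovary 2 (adjusted p = 0.000236) and -0.08 without wild-type ovary 1. Sema3d was 5.44 and 7.69 against 6.02 to 6.86, and leaving out wild-type ovary 2 gave 0.94, while leaving out ovary 1 gave -1.31.

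Of the 9 plexins, Plxna4 rose while Plxna2 and Plxnd1 fell, and neither neuropilin passed. Plxna4, a receptor for class 3 semaphorins with neuropilins and for class 6 directly, was 7.54 and 7.55 in wild-type ovaries and 8.54, 8.36 and 8.48 in mutants (0.91 ± 0.16, adjusted p = 0.00376). Plxna2, a receptor for the same classes, was 7.22 and 6.66 in wild-type ovaries and 5.60, 5.78 and 5.91 in mutants. All mutants were below both wild-type ovaries, by -1.18 ± 0.18 (adjusted p = 0.00136). Plxnd1, a receptor of vascular endothelium for Sema3e, was 8.07 and 8.82 against 7.30, 7.55 and 7.52 (-0.99 ± 0.20, adjusted p = 0.00686). Without wild-type ovary 2, the higher of the pair, its fall was -0.62. Plxnc1, the receptor for Sema7a, was 9.44 and 8.30 in wild-type ovaries and 9.96, 9.35 and 9.67 in mutants, and the groups overlapped. Its difference of 0.79 ± 0.29 (adjusted p = 0.0929) was 1.36 without wild-type ovary 1 (adjusted p = 0.000997) and 0.22 without wild-type ovary 2. The neuropilin differences were -0.21 ± 0.17 for Nrp1 and -0.48 ± 0.19 for Nrp2 (adjusted p = 0.456 and 0.123), with 95% intervals of -0.59 to 0.16 and -0.89 to -0.06.

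Among Slits and their receptors, the ligand Slit3 rose while Robo1 and Robo2 fell. Slit3 was 7.22 and 7.21 in wild-type ovaries and 8.63, 8.51 and 9.23 in mutants. The rise of 1.58 ± 0.19 (adjusted p = 0.000319) left the groups well apart. Robo1 was 9.13 and 8.75 in wild-type ovaries and 6.56, 6.78 and 6.64 in mutants, the largest fall among the members at -2.28 ± 0.15 (adjusted p = 4.32e-06). Robo2 was 7.56 and 7.11 against 5.63, 6.34 and 5.98. Its mutants varied more than those of Robo1, but none reached the wild-type range, and the fall was -1.35 ± 0.21 (adjusted p = 0.00149). Slit2 (0.30 ± 0.17), Slit1 (-0.10 ± 0.14), Robo3 (-0.44 ± 0.14, adjusted p = 0.065) and Robo4, the endothelial member (-0.02 ± 0.16), did not pass.

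Of the netrins only Ntn4, a laminin-binding netrin of basement membranes, rose. It was 7.54 and 6.44 in wild-type ovaries and 8.89, 7.99 and 8.47 in mutants, a difference of 1.46 ± 0.32 (adjusted p = 0.0119). The wild-type ovaries lay over 1 unit apart, and without wild-type ovary 2 the difference was 0.91. Ntn1 (-0.12 ± 0.14), Ntn3 (-0.51 ± 0.17, adjusted p = 0.0679) and Ntn5 (0.09 ± 0.15) did not pass. None of the 4 Unc5 genes passed in limma, and 0 of them had an unadjusted p under 0.05, against 28.9% of all genes. Their differences ran from -0.07 for Unc5b to 0.26 for Unc5a.

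**Figure D2:**
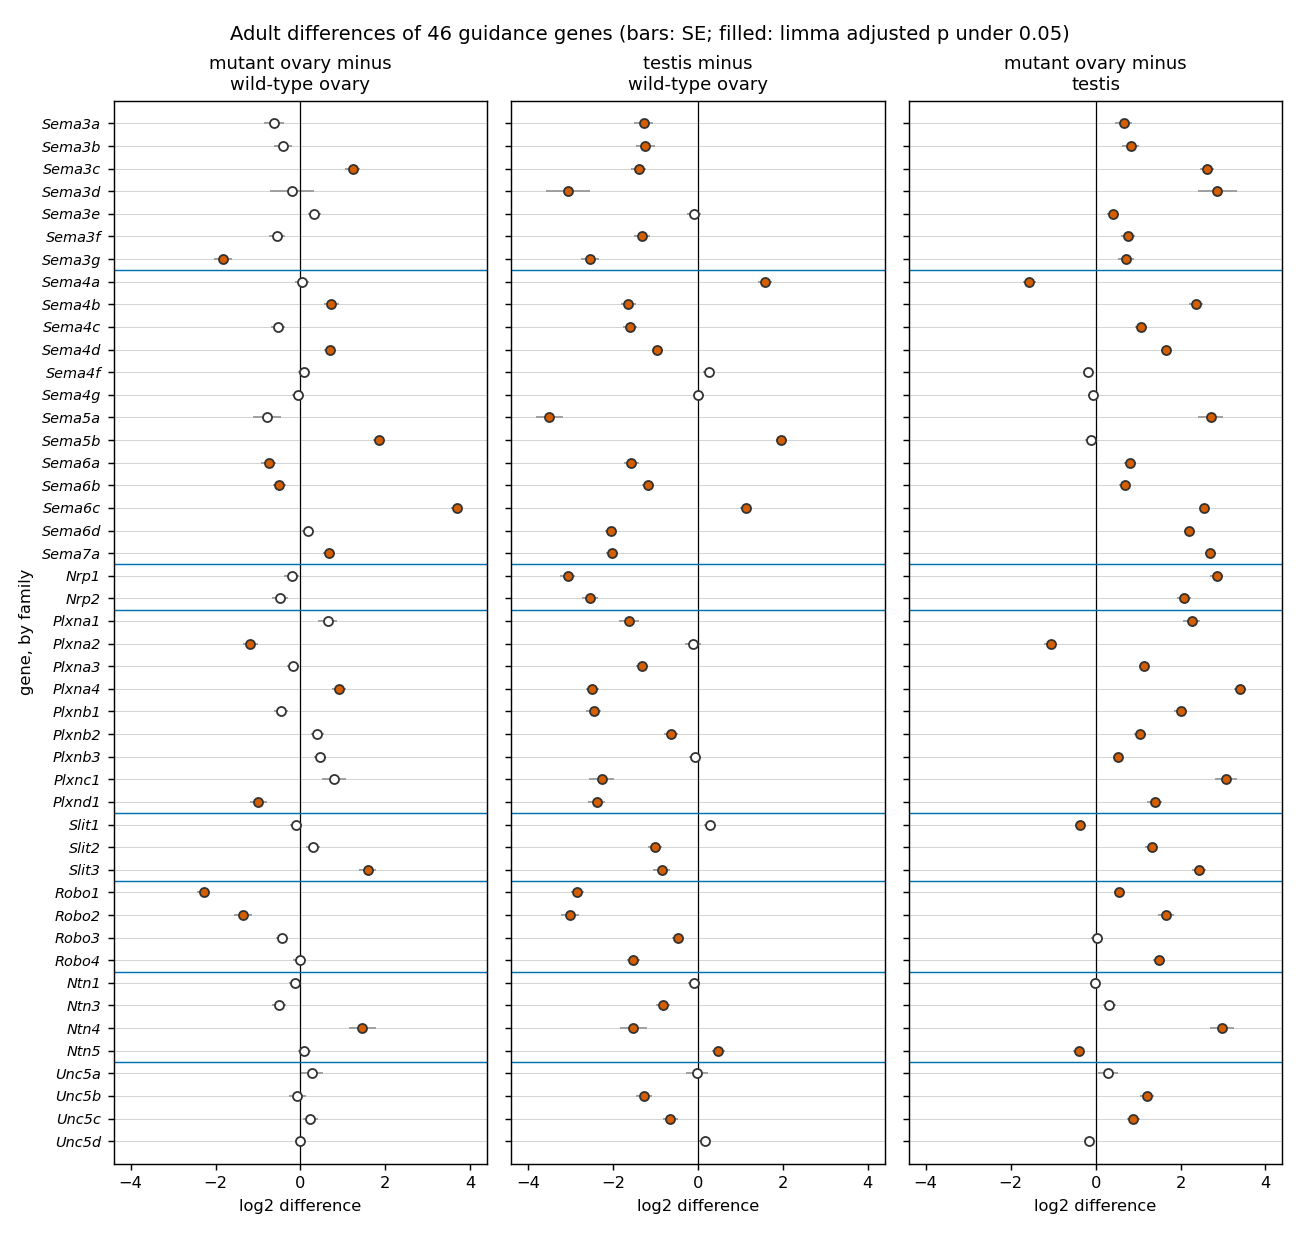
Difference on the log2 scale with its SE (bars) for each of the 46 genes in the 3 adult comparisons, which share samples, with genes that passed as filled points and families set off by lines. Values for mutant minus wild-type ovary lie on both sides of 0, from -2.28 for Robo1 to 3.68 for Sema6c, those for testis are lower in 33 genes that passed, and those for mutant minus testis are higher in 34.

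Markers of some cell types moved between mutant and wild-type ovary, where 9.55% of all genes were higher and 6.66% lower. The 9 Sertoli cell markers all rose in mutant ovaries, to a summed level on the linear scale of 5539 to 6269, against 388 to 599 in wild-type ovaries and 1497 to 1636 in testes. Of 13 granulosa cell markers, 8 fell and 1 rose, with sums of 4402 to 5733 in mutants and 8151 to 12866 in wild-type ovaries. This list holds Foxl2, the mutated gene itself, which is among those that fell. Of 8 endothelial markers 4 fell (Cdh5, Pecam1, Emcn and Tie1) and 0 rose, with sums of 1033 to 1247 against 1399 to 2126, in the comparison in which Plxnd1 and Sema3g fell and Robo4 did not pass. Of 8 smooth muscle and pericyte markers 7 fell, with sums of 1693 to 2561 against 3770 to 3912. Of 8 leukocyte markers 2 rose, with sums of 1266 to 1935 against 959 to 969. Of 8 nerve and Schwann cell markers only Tubb3 rose (2.71 ± 0.24), with sums of 452 to 725 against 240 to 256, and Sox10, S100b, Prph, Nefl, Th and Dbh were below the median of all values in every adult sample. In the remaining lists, 0 of 10 oocyte, 0 of 8 spermatid and 0 of 3 oviduct markers passed. Of 7 stromal markers 1 rose and 1 fell, and of 6 theca, luteal and Leydig markers 1 rose and 1 fell. Of 6 surface epithelium markers 1 rose. The part of these cell types in the values of the guidance genes was not tested.

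In the testis, the guidance genes were mostly lower than in wild-type ovary: 33 of 46 were lower and 4 higher. That is 80.4% of the members against 60.3% of all genes (71.7% against 35.9% for lower, 8.7% against 24.4% for higher), with a median difference of -1.28 over the members and -0.15 over all genes. All 4 Robos, both neuropilins, 7 of 9 plexins and 6 of 7 class 3 semaphorins were lower, with medians of -2.18, -2.81, -1.62 and -1.32. The groups did not overlap in 39 members, against 73.8% of all genes, with 6 above (28.5% of all genes) and 33 below (45.4%), and 30 members passed with at least 2-fold (34.7% of all genes). The receptor Nrp1 was 4.56, 4.58 and 4.88 in testes against 7.54 and 7.94 in wild-type ovaries (-3.07 ± 0.17). Robo2 was 4.24, 4.38 and 4.36 in testes (-3.01 ± 0.21), and Robo1 at most 6.18 (-2.84 ± 0.15). All testes lay at least 2 units below every wild-type ovary for these receptors. Sema5a had the largest difference, with 5.84, 5.99 and 6.18 in testes (-3.50 ± 0.32). For Sema3d, at 3.48, 3.21 and 3.83, the difference of -3.06 ± 0.52 was -1.94 without wild-type ovary 2. Other passed values that a single wild-type ovary moved by over 1.5 times were those of Ntn4 (-1.52, or -0.96 without ovary 1), Sema3a (-1.28, or -0.84 without ovary 2), Sema3b (-1.24, or -0.82 without ovary 1), Robo3 (-0.47, or -0.29 without ovary 1) and Unc5c (-0.65, or -0.34 without ovary 1), and Robo3 and Unc5c then missed the threshold.

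The genes higher in testis than in wild-type ovary were Sema5b, Sema4a, Sema6c and Ntn5. Sema5b was 7.16, 7.25 and 7.38 in testes (1.96 ± 0.13, adjusted p = 3.05e-07). Sema4a, a transmembrane class 4 semaphorin studied mainly in immune cells, was 7.52, 7.50 and 7.56 in testes, 6.17 and 5.72 in wild-type ovaries and 5.79, 6.19 and 5.95 in mutants (1.58 ± 0.17 for testis against wild-type ovary). Its testis values were high and close together, and both kinds of ovary overlapped. Sema6c was 7.07, 6.99 and 7.24 in testes (1.12 ± 0.13, adjusted p = 2.08e-05). Ntn5 differed by 0.48 and was dim in every sample. The 9 members that did not pass were Ntn1, Plxna2, Plxnb3, Sema3e, Sema4f, Sema4g, Slit1, Unc5a and Unc5d. In the same comparison all 8 endothelial markers were lower in testis (sums of 253 to 268). Sums of stromal markers were 783 to 844 in testes and 5847 to 7422 in wild-type ovaries. Also lower were 7 of 7 stromal, 8 of 8 leukocyte, 6 of 6 surface epithelium, 12 of 13 granulosa cell and 9 of 10 oocyte markers. Smooth muscle and pericyte markers were lower in 7 of 8 and higher in 1. Higher were 8 of 8 spermatid, 7 of 9 Sertoli cell and 2 of 3 oviduct markers. Of theca, luteal and Leydig markers 2 were higher and 3 lower, and of nerve and Schwann cell markers 2 and 4. Of all genes 35.9% were lower and 24.4% higher. Their part was not tested.

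Against testis, the mutant ovary was higher in 34 of 46 guidance genes and lower in 4, or 82.6% of the members against 61.8% of all genes (37.5% higher and 24.3% lower). The median was 1.05 over the members and 0.14 over all genes. The groups did not overlap in 40 members, against 69.5% of all genes, with 35 above (42.8% of all genes) and 5 below (26.7%), and 26 members passed with at least 2-fold (36.0% of all genes). All 7 class 3 semaphorins, both neuropilins and 8 of 9 plexins were higher. Plxna4 showed the largest difference, with 5.38, 4.95 and 4.84 in testes against 8.36 to 8.54 in mutants (3.40 ± 0.15, or 10.6-fold). The 4 lower genes were Sema4a (-1.56 ± 0.15), Plxna2 (-1.06 ± 0.16), Ntn5 (-0.40) and Slit1 (-0.37). The 8 that did not pass were Ntn1, Ntn3, Robo3, Sema4f, Sema4g, Sema5b, Unc5a and Unc5d. In the same comparison 8 of 8 endothelial, 7 of 7 stromal, 8 of 8 leukocyte, 6 of 6 surface epithelium, 9 of 9 Sertoli cell, 12 of 13 granulosa cell and 9 of 10 oocyte markers were higher in mutant ovaries, and 8 of 8 spermatid markers were lower. Stromal sums were 6472 to 8073 in mutants and 783 to 844 in testes, and endothelial sums 1033 to 1247 and 253 to 268. What these markers contribute to the guidance gene values was not tested.

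Each of the 16 genes that passed between mutant and wild-type ovary can be placed by its testis level, in comparisons that share samples. Of the 9 that rose, 7 were lower in testis than in wild-type ovary: Ntn4, Plxna4, Sema3c, Sema4b, Sema4d, Sema7a and Slit3. For these genes the mutant differed from testis by more than the wild-type ovary did. Slit3 was 6.27, 6.45 and 6.34 in testes, below its 7.22 and 7.21 in wild-type ovaries and 8.51 to 9.23 in mutants, and Sema7a was 7.39, 7.47 and 7.42 in testes. Sema5b and Sema6c rose and were higher in testis. Sema5b in mutants differed from testis by -0.12 ± 0.12 (95% interval -0.38 to 0.14, adjusted p = 0.42). Sema6c in mutants exceeded testis by 2.56 ± 0.11 (adjusted p = 9.52e-09). Of the 7 that fell, 6 were lower in testis and stayed above it in mutants: Plxnd1, Robo1, Robo2, Sema3g, Sema6a and Sema6b. Robo1 lay nearest to its testis level among the Robos that fell, at 0.56 ± 0.13 above (adjusted p = 0.00331), and Robo2 was 1.66 ± 0.19 above. Plxna2 was 6.69, 6.87 and 6.92 in testes, where it did not differ beyond its error from wild-type ovary (-0.12 ± 0.18, adjusted p = 0.598), and the mutants lay below both.

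At P3, 1 of the 46 guidance genes, Plxnc1, passed between KO and wild-type ovary. That is 2.17% of the members against 0.324% of all 18194 genes (59 genes, 0.137% higher and 0.187% lower). Values at P3 are MAS5 signals on a linear scale, and differences are of log2(signal + 16). Plxnc1 was 3020.4 and 3003.3 in wild-type pools and 711.5 and 586.9 in KO pools. The pools of a genotype were close and the genotypes far apart, by -2.19 ± 0.15 (adjusted p = 0.00865), or 4.57-fold. A second probe set of Plxnc1 read 1455.3 and 1477.3 in wild-type against 433.9 and 404.6 in KO pools, while its other 4 probe sets were dim, and the mean over all 6 gave -0.45 (adjusted p = 0.752). The call was also lost without an intensity trend in the fit (adjusted p = 0.15). With 1 pool left out the difference ran from -2.33 to -2.06. That leaves a single array of a genotype, so no p-value is given.

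**Figure D3:**
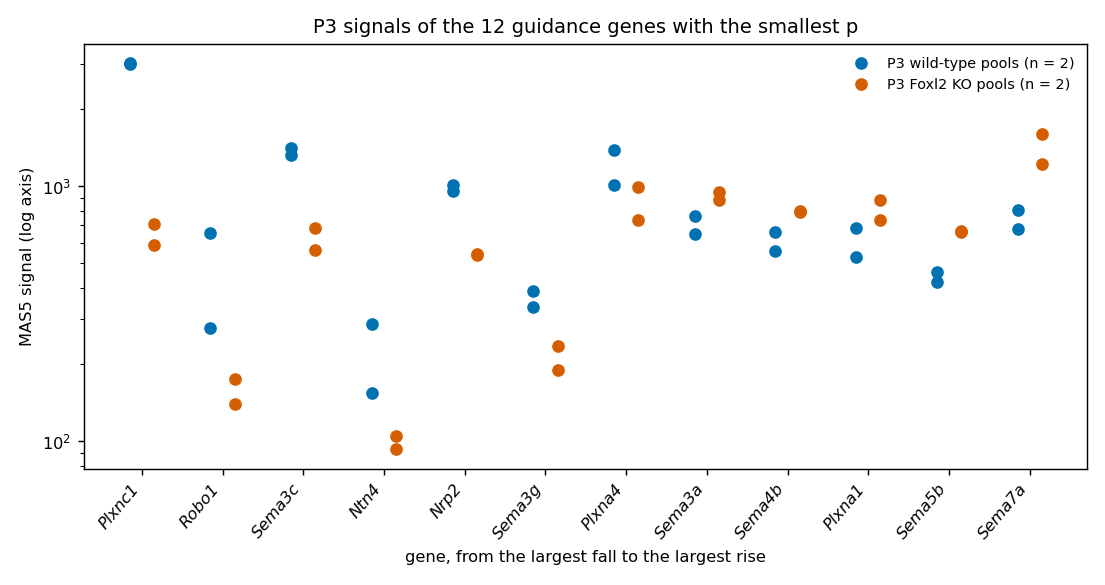
MAS5 signal on a log axis in the 2 wild-type and 2 KO pools at P3 for the 12 guidance genes with the smallest unadjusted p. Plxnc1 was 3003.3 and 3020.4 in wild-type and at most 711.5 in KO pools, and Sema7a was higher in both KO pools.

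The other P3 values did not pass. In simulated data the P3 test found 7% of changes of 1 log2 unit and the adult test 95%. A miss at P3 therefore does not show that a gene was unchanged. KO and wild-type pools did not overlap in 24 members (52.2% against 38.9% of all genes), with 10 above (19.3% of all genes) and 14 below (19.7%). An unadjusted p under 0.05 was found for 8 of 46 members and for 9.53% of all genes. Sema3c was 1411.9 and 1319.5 in wild-type and 561.0 and 683.1 in KO pools (-1.12 ± 0.16, adjusted p = 0.0673). Nrp2, a co-receptor of class 3 semaphorins, was 1009.5 and 956.1 against 535.9 and 543.3 (-0.85 ± 0.15, adjusted p = 0.108). Both were lower in each KO pool. Sema7a, the ligand of Plxnc1, was 806.8 and 676.9 in wild-type and 1223.1 and 1600.6 in KO pools (0.91 ± 0.19, adjusted p = 0.14). Robo1 was 651.4 and 278.9 against 176.0 and 139.9 (-1.36 ± 0.41, adjusted p = 0.337), with wild-type pools that differed by more than 2-fold. Sema5b was 459.6 and 418.9 against 663.2 and 657.5 (0.57 ± 0.17, adjusted p = 0.332). Sema6c was 311.4 and 283.0 against 343.6 and 191.8, and the genotypes overlapped (-0.19 ± 0.32). Robo2 and Slit3 were dim, between 15.2 and 126.7. In these pools summed oocyte markers were 64074 to 66348 in KO and 80001 to 91910 in wild-type, with 2 of 10 lower, and theca, luteal and Leydig markers 980 to 1012 against 1992 to 2418, with 1 of 5 lower. Granulosa cell markers had overlapping sums of 20974 to 21321 and 20242 to 22076, with 3 of 13 lower, Foxl2 itself among them. Gene by gene, 11 of the 13 differences were negative, with a median of -0.99 against -0.01 over all genes. KO pools lay below both wild-type pools in 8 of the 13 (19.7% of all genes) and above in 1. Sertoli cell markers were 11694 to 11776 in KO and 9334 to 9437 in wild-type, with 1 of 10 higher, and endothelial markers 2313 to 3142 against 3270 to 3988, with 0 of 8 passing. The part of these cell types was not tested.

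Adult and newborn comparisons share no sample and can be set side by side for the 16 adult genes that passed. The sign at P3 matched in 10 (62.5%), where 59.5% of 3072 adult genes that passed matched. P3 groups lay apart in the adult direction in 6 (37.5% against 30.7%): Plxnd1, Robo1, Sema3g, Sema4b, Sema5b and Sema7a. They lay apart in the opposite direction in 3 (18.8% against 15.2%): Ntn4, Plxna4 and Sema3c. These shares are near those of all genes. Among the 6, Robo1 and Sema4b each had 1 P3 probe set that ran the other way, and Plxnd1 was dim in every pool. Ntn4 read 154.9 and 288.5 in wild-type and 104.9 and 92.9 in KO pools (-0.99 ± 0.37, adjusted p = 0.466), all below the P3 median of 328.6. Plxna4 read 1008.6 and 1386.6 against 733.4 and 991.3 (-0.46 ± 0.22, adjusted p = 0.61), and its second probe set ran the other way. The ages also differ in array platform, labelling, pooling and the Foxl2 allele.

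**Figure D4:**
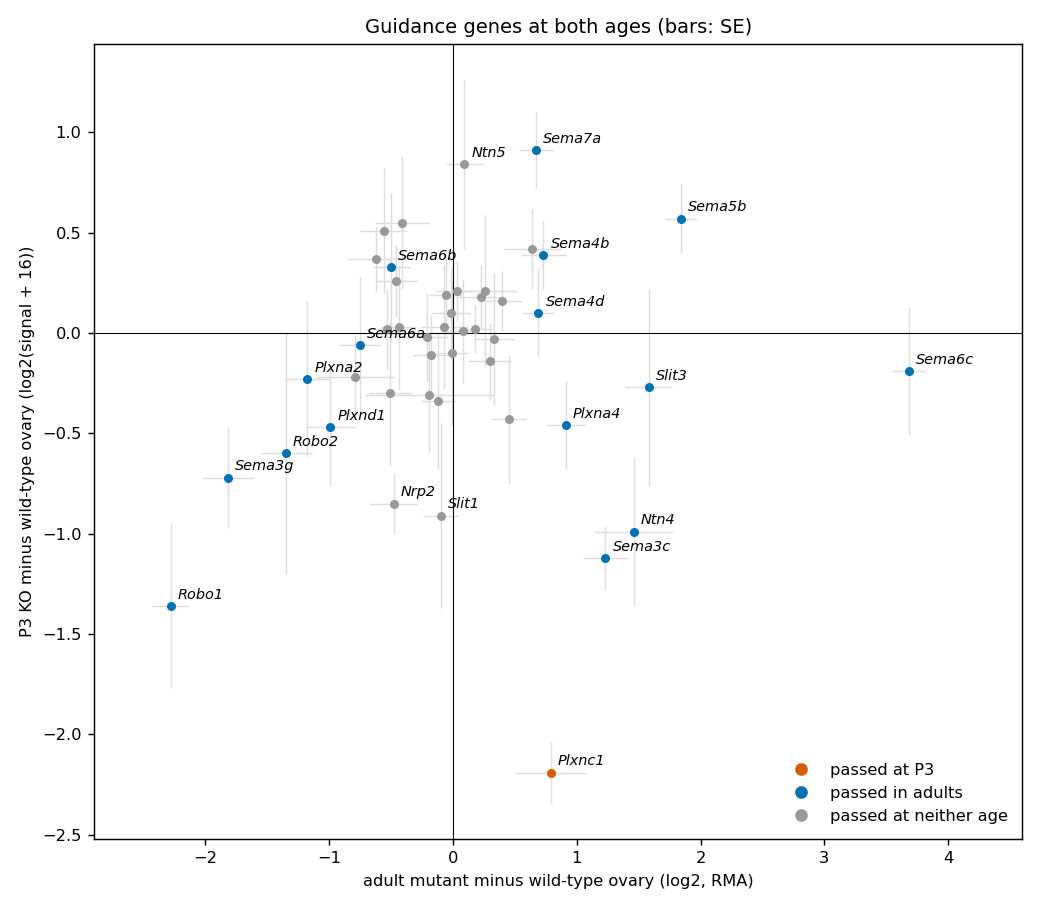
Difference in adult mutant against wild-type ovary (x axis, RMA log2) and in P3 KO against wild-type ovary (y axis, log2 of signal + 16) for each of the 46 genes, with bars for the SE and colours for the age at which a gene passed. Sema6c lies far right near 0 at P3, Plxnc1 lowest, and Sema3c at 1.23 in the adult and -1.12 at P3.

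Other genes of these pathways, a list of co-receptors, ligand partners and intracellular mediators, were measured in the same way: 61 in the adult and 62 at P3. In the mutant ovary 10 rose and 11 fell (34.4%, against 16.2% of all genes). The largest rises were those of Srgap3, a GTPase-activating protein that binds Robo receptors (1.79 ± 0.21, adjusted p = 0.00022), and Flrt1, a membrane partner of Unc5 receptors (1.53 ± 0.15, adjusted p = 9.58e-05). The largest falls were those of Sdc1, a heparan sulphate proteoglycan (-1.53 ± 0.23, adjusted p = 0.00116), and Itga1, an integrin chain (-1.22 ± 0.24, adjusted p = 0.00727). In testis 42 were lower than in wild-type ovary and 6 higher (35.9% and 24.4% of all genes). Plxdc2, a plexin-domain membrane protein, was lowest against wild-type ovary (-4.03 ± 0.21), whereas its relative Plxdc1 was higher (3.35 ± 0.15). Mutant ovaries exceeded testes in 41 and were lower in 10 (37.5% and 24.3% of all genes). Kdr, a receptor for vascular endothelial growth factor, was 3.46 ± 0.15 higher, and Plxdc1 differed by -3.63 ± 0.13. At P3 0 of 62 passed in limma and 10 had an unadjusted p under 0.05 (9.53% of all genes did), with the largest difference in Chl1, a cell adhesion molecule (1.90 ± 0.28, adjusted p = 0.0744).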

How the data were processed

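Per the labels' protocols, arrays took 300 ng of RNA from single perfused animals (adult) or 1000 ng from pools (P3), the latter labelled for CodeLink arrays. MAS5 and the probe set names at P3 belong to Affymetrix arrays, a conflict that was not resolved. Per the submitters' processing notes, the authors made the deposited adult values, which are log2 levels, with RMA in the Affymetrix Expression Console. Those notes name MAS5 for the deposited P3 values, which are linear intensities. Each P3 array had a trimmed mean of 500 (2% left out at each end). The sources used here give no software versions.

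Probe sets with a single gene in the platform annotation were used (21789 of 35557 adult, 34958 of 45101 at P3), with symbols updated through RefSeq GRCm38.p6, and 91 and 204 kept an older symbol. The members were on 49 adult and 103 P3 probe sets, and the probe set with the highest mean stood for its gene. The array design names no genome build, so coordinates are given only for RefSeq promoters.

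Tests used limma 3.58.1 in R 4.3.3 (lmFit and eBayes with an intensity trend, two-sided, Benjamini-Hochberg over all genes). The 8 adult arrays were fitted together and the 4 P3 arrays alone as log2(signal + 16), which understates changes of dim genes. The scripts were tested on simulated data, in which 95% of changes of 1 log2 unit passed in the adult test and 7% at P3. The simulated noise was normal, with each gene's spread pooled over the groups of its table and moved toward the median spread. A wider spread of the wild-type ovaries was thus not kept, and the shares hold for this setting only. For changes of 2 units the shares were 100% and 76%. Within groups r across genes was 0.969 to 0.996, and no array repeated another. Arrays give no counts, so their number limits the precision. Same-numbered samples were treated as unpaired: adult organs are single animals and P3 samples are pools. Deviations of same-numbered adult samples correlated by -0.00279 to 0.079. Between testis and mutant ovary they were 0.079, 0.0601 and 0.0575, while differently numbered samples gave -0.0595 to -0.00165. In groups of 2 the deviations mirror each other, so these values cannot show that pairing is absent. Named with sample values were members that passed and whose groups did not overlap, with others where a wild-type ovary or an age set them apart, chosen after their values were seen. Of the pathway list up to 4 of the largest changes that passed were named per comparison, and Chl1 at P3, where none passed. Alternatives covered the pseudocount, dim filter, probe set rule, trend, scaling, replicate block, groups in the fit and each sample left out. The members, the pathway and marker lists and the tests were chosen with earlier results of these data known.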

Additional observations from a re-analysis of the deposited data

Results flagged for a closer look

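For 3 genes every mutant sample moved one way in the adult and the opposite way at P3. The adult and P3 differences on the log2 scale were 1.46 and -0.99 for Ntn4, 0.91 and -0.46 for Plxna4, and 1.23 and -1.12 for Sema3c. In each gene every mutant ovary was above both adult wild-type ovaries and each P3 KO pool was below both wild-type pools. The difference between the ages was not tested, since the sets lie on different platforms. None of the 3 P3 values passed. For Plxna4 the second P3 probe set ran the other way, and the mean over its probe sets was 0.11. Ntn4 was below the median of all P3 values in every pool, and its adult difference was 0.91 without wild-type ovary 2. Across all adult genes that passed and were measured at P3, 15.2% moved apart in opposite directions in this way.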

How the results depend on the processing

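Of the genes that passed, 10 of 16 did so under every alternative for mutant against wild-type ovary, 34 of 37 for testis against wild-type ovary, 34 of 38 for mutant ovary against testis and 0 of 1 at P3. Leaving out each mutant ovary in turn gave 14 to 17 guidance genes for mutant against wild-type ovary. Leaving out each testis gave 35 to 37 for testis against wild-type ovary. For mutant against testis, leaving out each sample gave 35 to 38. Without 1 wild-type ovary or 1 P3 pool a group holds a single array, so no count is given for those fits. They are among the alternatives above, and their tests hold none of that group's spread. For mutant against wild-type ovary, 13 passed when testes were left out of the fit (7 higher and 6 lower). Requiring a 2-fold change left 9 in mutant against wild-type ovary. With quantile scaling 10 were higher and 9 lower, and with centring 10 and 7, against 9 and 7. Calls also lost were those of Ntn5 in testis against wild-type ovary, and of Ntn5, Sema3a, Sema3e and Slit1 in mutant ovary against testis. At P3, 0 passed without the trend or with the mean of probe sets. With dim genes left out, 3 of 27 members passed (Plxnc1, Nrp2 with a limma adjusted p of 0.0405 and Sema3c with 0.0223). With the replicate block 4 of 46 passed (with Nrp2, Sema3c and Sema7a at 0.0471, 0.0108 and 0.0436). The replicate block gave 15, 37 and 38 genes in the adult comparisons, and the same-numbered P3 pools correlated by 0.0423. For the pathway list, mutant against wild-type ovary gave 11 with the ovaries alone and 6 at 2-fold, and testis against wild-type ovary gave 30 at 2-fold. P3 gave 2 of 40 with dim genes left out and 3 of 62 with the replicate block. Except at 2-fold, shares of all genes under the alternatives are not given here, so the other counts cannot be set against them.

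Signs turned only in genes that had not passed. For mutant against wild-type ovary, leaving out a sample gave ranges of -0.83 to 0.01 for Sema3b, -0.24 to 0.04 for Slit1, -1.31 to 0.94 for Sema3d, -0.20 to 0.25 for Sema4a, -0.27 to 0.13 for Unc5b and -0.08 to 0.55 for Unc5c. For testis against wild-type ovary it gave -0.40 to 0.16 for Plxna2. At P3 it gave -0.30 to 0.26 for Nrp1, -0.84 to 0.38 for Plxna2, -1.46 to 0.25 for Robo2, -0.12 to 0.32 for Sema4d, -0.49 to 0.36 for Sema6a, -0.59 to 0.20 for Sema6c, -0.38 to 0.11 for Slit2, -0.87 to 0.34 for Slit3 and -0.35 to 0.41 for Unc5b. The mean of probe sets gave -0.07 for Unc5d in testis against wild-type ovary, and at P3 0.16 for Plxna2, 0.11 for Plxna4, -0.07 for Sema3b, -0.05 for Sema3f and -0.13 for Unc5c. The causes were not tested. Each P3 group and the adult wild-type ovaries had 2 arrays. The dim filter removed 13 of 46 adult and 19 of 46 P3 members. At P3 the values of dim members are among the least certain. In the adult, the largest errors given above for members were those of Sema3d, Sema5a, Ntn4 and Plxnc1, which the filter kept.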
